A study of Homo sapiens with 6 samples.

Results

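The Wnt pathway transcripts described here are 57 genes that encode ligands, receptors, secreted inhibitors, signal transducers and feedback targets, taken by symbol from a table of 60623 genes. All 57 were found, each once, and 30 of them reached the level needed for testing. RNA-seq was run on 3 libraries of cells depleted of SRSF10, an SR-type regulator of pre-mRNA splicing, and on 3 control libraries, all labelled Huh7, a line derived from human liver carcinoma. The genotype of the knockdown libraries is given as SRSF10 knockdown, and the series title points to a short hairpin RNA. The control genotype is given as WT, the sample titles begin with NC, and whether these cells carried a control hairpin is not stated. The treatment label is NA in both groups. Whether replicates were separate cultures, and whether the hairpin cells were a pool or a clone, is not stated either, and the p-values therefore reflect nothing more than the scatter among these libraries, which may be technical.

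Wnt proteins are secreted lipid-modified signals that bind Frizzled receptors. In the beta-catenin branch a Frizzled receptor and an LRP co-receptor stop a cytoplasmic destruction complex from degrading beta-catenin, which then enters the nucleus and works with TCF and LEF factors on target genes, several of which feed back to dampen the pathway. WNT5A is the best known ligand of the branch that does not use beta-catenin and acts on cell polarity and movement, and it can oppose the beta-catenin branch. In adult liver the beta-catenin branch sets the gene expression of hepatocytes around the central vein, and mutations that activate it are frequent in hepatocellular carcinoma.

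Levels are FPKM as the authors deposited them, that is, fragments scaled to sequencing depth and gene length. Levels and shares of different genes compare only roughly, since the length of a gene may include exons that the cells do not use. The step sizes of the lowest FPKM values gave estimated depths of 12710000 to 14380000 fragments per library. SRSF10 was at 10.6, 10.8 and 10.6 FPKM in the knockdown libraries, against 18.6, 19.5 and 19.8 FPKM in the control libraries, so its mean was 44.8% lower in the knockdown (limma log2 fold change -0.80, SE 0.038, adjusted p = 0.000166). A two-sided exact permutation test gave p = 0.1, which is the minimum that 3 against 3 libraries allow. Of 12 hepatocyte and hepatoma markers 9 were under 1 FPKM in all 6 libraries, among them AFP, ALB and APOA1. TTR, APOA2 and GPC3, also among the 9, were listed at 0, while APOH, FGB and HNF4A were above 1 FPKM. The label Huh7 is thus not borne out by most of these transcripts, and the identity of the cells was not tested. Leukocyte markers summed to 0.307 to 0.626 FPKM in the knockdown and 0.233 to 0.324 FPKM in the control. The 4 endothelial markers summed to 9.46 to 10.8 FPKM in the knockdown and 5.43 to 6.13 FPKM in the control, nearly all from PECAM1 and KDR, with VWF and CDH5 under 0.1 FPKM in each library. The 6 fibroblast markers summed to 9.55 to 10.5 FPKM in the knockdown and 4.12 to 5.21 FPKM in the control, nearly all from LUM, with COL1A1 under 0.2 FPKM in each library. The 4 cholangiocyte markers summed to 85.0 to 93.9 FPKM in the knockdown and 93.8 to 98.0 FPKM in the control, mostly from KRT19, which hides members that moved in opposite directions. SOX9 rose (3.82 to 5.27 FPKM in the knockdown, 0.80 to 1.90 FPKM in the control; limma adjusted p = 0.00482) and KRT7 fell (0.964 to 1.40 FPKM in the knockdown, 2.42 to 3.65 FPKM in the control; limma adjusted p = 0.00405). The part of these differences in the results on Wnt genes was not tested. In bulk RNA, fewer cells of a kind and less RNA per cell cannot be told apart.

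In the knockdown 8 Wnt members rose and 7 fell of the 30 tested, at an adjusted p under 0.05 from limma over 12191 genes. Across all tested genes 25.2% were called, 12.6% higher and 12.5% lower. Because the members were chosen with earlier results known, their larger share is no support for a change of Wnt genes as a set. Without knockdown replicate 2 or 3 the share of all genes called was 16.8% or 16.1%, and the members called numbered 14 and 15. With 1 library left out the members called were fewest, at 13, without control replicate 1, where the share was 18.5%. The members that rose were DKK1, TSPAN12, DKK3, PORCN, FZD6, BCL9, WNT7B and BCL9L, and those that fell were SOST, WNT5A, RNF43, FZD7, WLS, AXIN2 and CTNNB1. Of the 30 tested members 16 had groups that did not overlap, beside 42.7% of all tested genes. These 16 were the 15 called members and DVL3, which was not called. SOST and WNT5A both fell and were the only called members whose FPKM + 1 changed at least 2-fold, a size that 1.07% of all tested genes reached with a call. The median log2 fold change of the 30 tested members was 0.00, beside -0.01 over all tested genes. SOST passed the filter through its control values alone and had to differ, so its call is not counted as support.

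**Figure D1:**
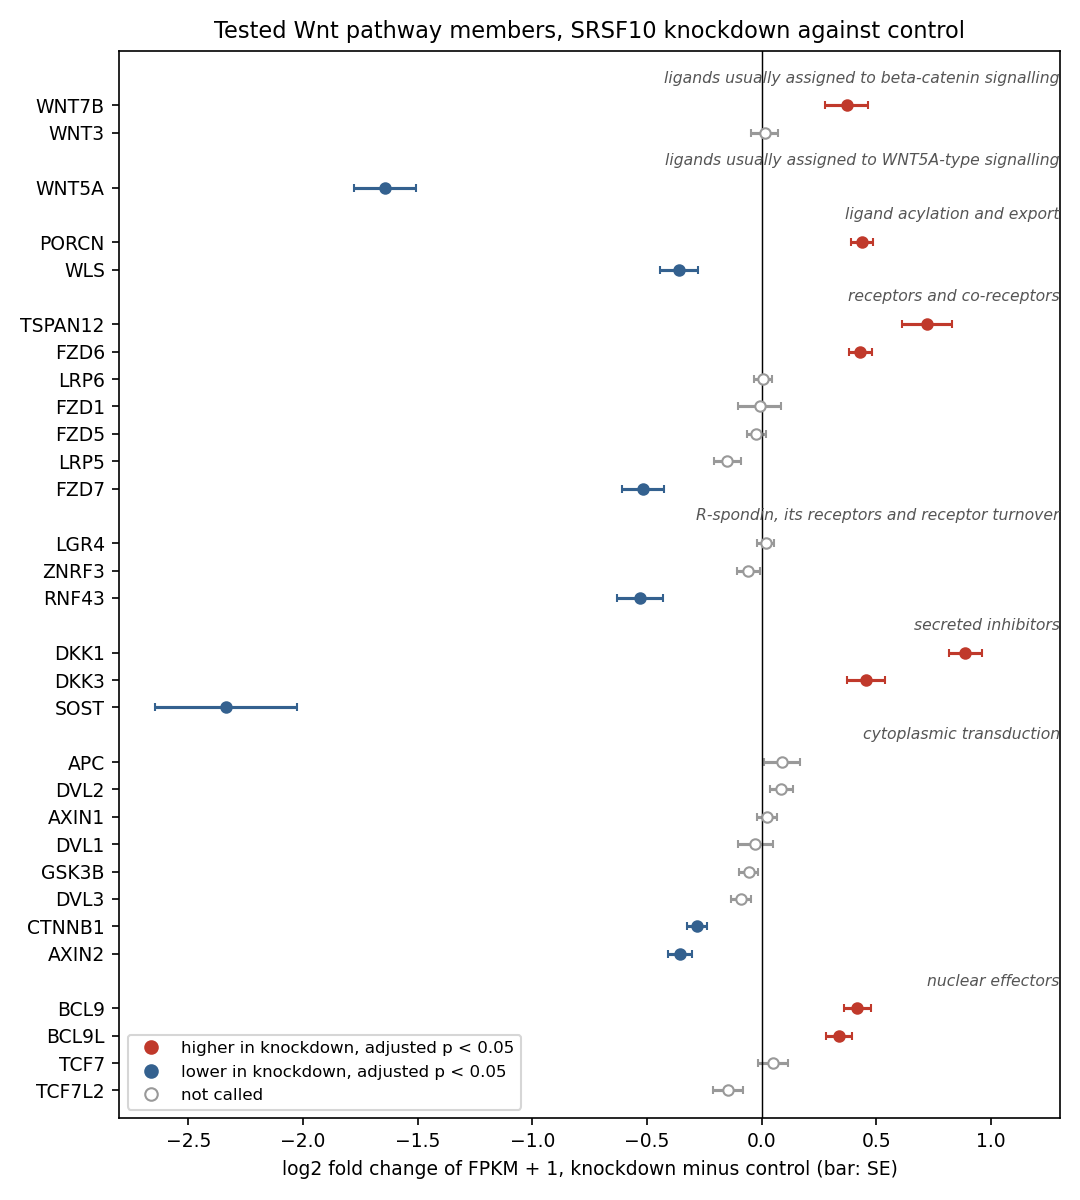
Log2 fold change of FPKM + 1 (knockdown minus control, x axis) with its SE for the 30 tested members, ordered by role. Filled points passed an adjusted p of 0.05; SOST (-2.34) and WNT5A (-1.64) lie far to the left, DKK1 (0.89) and TSPAN12 (0.72) farthest to the right, and most of the cytoplasmic members lie near 0.

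Among the ligands, WNT5A fell and WNT7B rose. WNT5A (ENSG00000114251, minus strand of chromosome 3, GRCh38, 55465715 to 55490539) had levels of 4.97, 5.96 and 5.68 FPKM in the knockdown libraries, against 19.1, 23.8 and 16 FPKM in the control libraries. All knockdown values lay far below the lowest control, and the controls were the more scattered group. The mean was 3.54-fold lower in the knockdown (log2 fold change -1.64, SE 0.135, limma adjusted p = 0.000679), and 7 of the 12191 tested genes had a lower log2 fold change. WNT5A lies on the short arm of chromosome 3, where 185 of 326 tested genes fell and 4 rose, with a median log2 fold change of -0.27, against 0.00 off chromosome 3. No tested gene of that arm had a lower log2 fold change than WNT5A.

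WNT7B, a ligand usually assigned to the beta-catenin branch, was at 5.55, 5.88 and 7.29 FPKM in the knockdown, against 4.44, 4.38 and 4.91 FPKM in the control. All knockdown values lay above all controls, with knockdown replicate 3 the highest (log2 fold change 0.37, SE 0.0944, limma adjusted p = 0.0295). Leaving out knockdown replicate 2 ended the call (limma adjusted p = 0.0583), as did leaving out control replicate 1 (0.0850) or control replicate 2 (0.0818). WNT3, also a ligand of that branch, was at 3.70, 3.43 and 3.87 FPKM in the knockdown and 3.62, 3.78 and 3.46 FPKM in the control, and the groups overlapped (adjusted p = 0.892). The other 10 ligands stayed under 1 FPKM and were not tested, and WNT6 and WNT7A were listed at 0 in every library.

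WNT4, a ligand of kidney and gonad development, was low but separated the groups. It was at 0.384, 0.490 and 0.505 FPKM in the knockdown and 0.0897, 0.0846 and 0.0476 FPKM in the control, about 24, 30 and 29 fragments against 6, 5 and 3. In a fit with no filter on low values its log2 fold change was 0.44 with a limma adjusted p of 0.0147. In that fit 6.64% of 32280 genes were called. WNT5B and WNT11, which act much as WNT5A does in vertebrate embryos, stayed under 0.13 FPKM in each library.

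The fall of WNT5A changed the make-up of the ligand transcripts. WNT5A made up 33.2%, 37.0% and 32.1% of the summed FPKM of the 13 ligands in the knockdown libraries, against 68.9%, 72.9% and 64.7% in the control libraries. WNT7B was the largest part in 2 of the 3 knockdown libraries, at 37.1%, 36.6% and 41.1%, against 16%, 13.4% and 19.9% in the control. The ligands usually assigned to the beta-catenin branch summed to 9.55, 9.61 and 11.5 FPKM in the knockdown and 8.42, 8.56 and 8.65 FPKM in the control. Those of the WNT5A type summed to 5.41, 6.48 and 6.24 FPKM in the knockdown and 19.3, 24.1 and 16 FPKM in the control. The beta-catenin type sum was thus the larger in each knockdown library and the smaller in each control library. These sums were not tested, and which branch a ligand uses depends on the receptors of the cell.

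**Figure D2:**
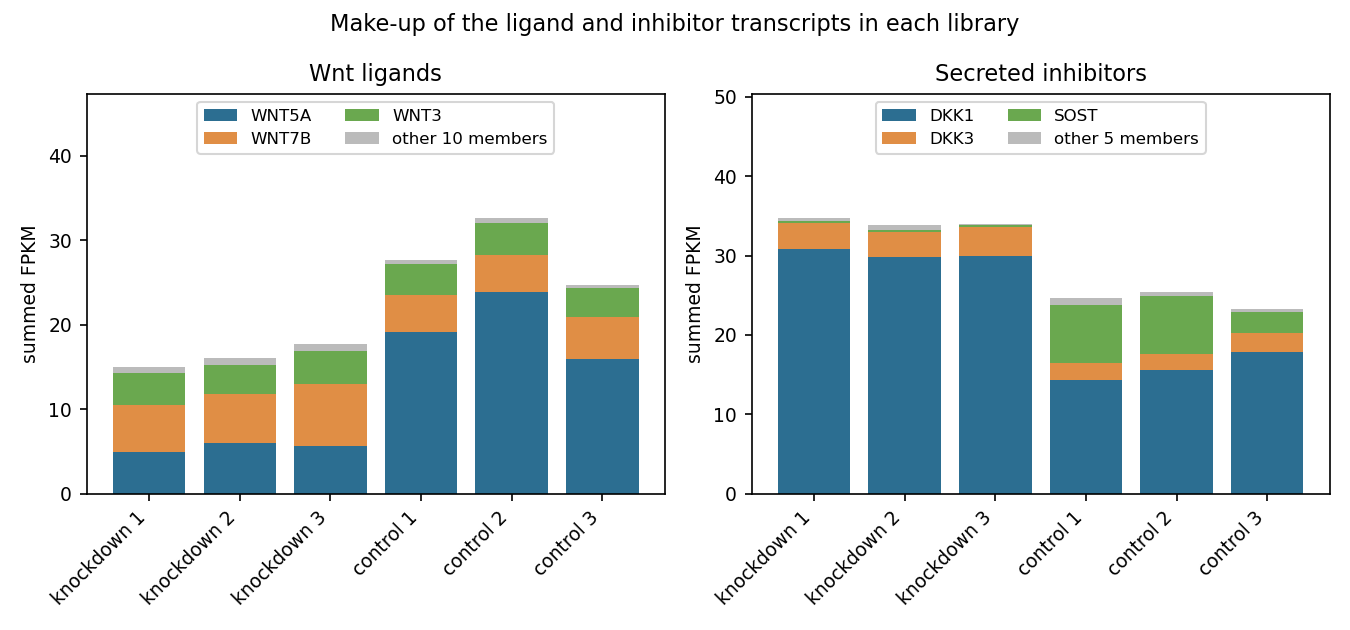
Stacked bars of FPKM in each library for the 13 ligands and the 8 secreted inhibitors. The WNT5A part is smaller in all 3 knockdown libraries (32.1% to 37.0% of ligand FPKM, against 64.7% to 72.9% in the control); in the inhibitors the SOST part is nearly absent from the knockdown, while the DKK1 part is larger.

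The 2 genes that process and carry all Wnt ligands moved in opposite directions. PORCN, the acyltransferase of the endoplasmic reticulum that attaches the lipid, was at 5.93, 6.07 and 6.40 FPKM in the knockdown and 4.27, 4.39 and 4.14 FPKM in the control. It rose with little scatter in either group (log2 fold change 0.44, SE 0.0485, limma adjusted p = 0.00163). WLS, the carrier that takes the ligand to the cell surface, was at 9.18, 7.58 and 9.67 FPKM in the knockdown and 11.8, 11.2 and 11.7 FPKM in the control. It fell (log2 fold change -0.36, SE 0.0822, limma adjusted p = 0.0201), but leaving out control replicate 1 (adjusted p = 0.0635) or control replicate 3 (0.0522) ended that call.

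Among the secreted inhibitors SOST fell and DKK1 and DKK3 rose. SOST encodes sclerostin, which binds LRP5 and LRP6 and is best known from bone. SOST (ENSG00000167941, minus strand of chromosome 17, 43753731 to 43758788) had levels of 0.249, 0.320 and 0.170 FPKM in the knockdown, against 7.21, 7.33 and 2.64 FPKM in the control. The groups lay far apart, and control replicate 3 was well below the other controls. The mean was 23.2-fold lower in the knockdown (limma adjusted p = 0.00305, log2 fold change -2.34, SE 0.31). No tested gene had a lower log2 fold change. SOST passed the filter through its control values alone, so its call and its rank are not counted as support. Without control replicate 3 the log2 fold change was -2.73. The knockdown values rest on about 8, 10 and 5 fragments, against 238, 214 and 82 in the control. Counting error alone gives 1.62 to 11.7 fragments for the lowest knockdown library and 65.2 to 102 for the lowest control library (exact Poisson 95% intervals).

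DKK1, which also blocks LRP5 and LRP6 and is itself induced by beta-catenin, was the most abundant inhibitor. DKK1 (ENSG00000107984, plus strand of chromosome 10, 52314296 to 52318042) had levels of 30.8, 29.8 and 29.9 FPKM in the knockdown, against 14.3, 15.6 and 17.8 FPKM in the control. The knockdown values were tightly grouped and all were above the highest control (1.90-fold by the means; log2 fold change 0.89, SE 0.0721, limma adjusted p = 0.000649). Its exons overlap those of PRKG1-AS1 on the other strand. DKK3, a related protein whose effect on Wnt signalling varies with the cell, was at 3.35, 3.09 and 3.73 FPKM in the knockdown and 2.15, 2.0 and 2.45 FPKM in the control (limma adjusted p = 0.00915, log2 fold change 0.46, SE 0.083).

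The summed FPKM of the 8 inhibitors was 34.8, 33.9 and 33.9 in the knockdown and 24.7, 25.4 and 23.2 in the control. DKK1 made up 88.5%, 88.1% and 88.2% of it in the knockdown, against 58.1%, 61.4% and 76.6% in the control. SOST made up 0.716%, 0.945% and 0.502% in the knockdown, against 29.2%, 28.9% and 11.4% in the control. The total was higher in every knockdown library although SOST was nearly absent there, which these sums describe without a test. The Wnt-cleaving enzyme NOTUM scattered between 0.0269 and 0.504 FPKM in the knockdown and between 0.253 and 0.716 FPKM in the control. The ligand-binding inhibitors SFRP1 and WIF1 were listed at 0, and SFRP4 and SOSTDC1 stayed under 0.3 FPKM.

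The promoters of SOST, DKK1 and WNT5A are shown because these members had the largest log2 fold changes of the 30. Each run is the 250 bases before a transcript start in RefSeq on GRCh38.p14, in the direction of transcription. WNT5A has another, upstream start in that table, whose window overlaps an annotated exon, so the window of the internal start is shown. Capitals mark TCAAAG on either strand and TATAAA in the direction of transcription, and both were chosen after earlier results were seen.
SOST, chr17:43758792-43759041, minus strand: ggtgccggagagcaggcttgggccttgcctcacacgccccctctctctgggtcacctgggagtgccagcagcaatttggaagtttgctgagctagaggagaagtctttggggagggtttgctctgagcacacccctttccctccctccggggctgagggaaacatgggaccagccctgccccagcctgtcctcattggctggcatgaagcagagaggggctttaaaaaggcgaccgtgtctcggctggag
DKK1, chr10:52314031-52314280, plus strand: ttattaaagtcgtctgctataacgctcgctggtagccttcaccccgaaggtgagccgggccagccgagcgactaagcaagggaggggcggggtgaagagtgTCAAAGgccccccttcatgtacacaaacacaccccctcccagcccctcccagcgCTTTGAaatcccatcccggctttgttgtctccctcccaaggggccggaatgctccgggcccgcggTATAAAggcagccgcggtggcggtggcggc
WNT5A, chr3:55481399-55481648, minus strand: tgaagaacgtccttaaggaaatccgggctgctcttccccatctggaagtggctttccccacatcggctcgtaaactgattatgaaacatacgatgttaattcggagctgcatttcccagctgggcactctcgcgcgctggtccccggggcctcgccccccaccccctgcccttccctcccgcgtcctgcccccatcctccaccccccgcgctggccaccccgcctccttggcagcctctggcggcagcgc
The letters ATCAAAG, the core bound by TCF and LEF factors, were searched on both strands in the 52 windows of the 40 members that RefSeq's table holds. They were in 0 of the 52, and in 2.26% of all 35116 windows. The shorter TCAAAG, contained in ATCAAAG, is at positions -149 to -144 and -95 to -90 before the DKK1 start, and 2 of the 52 member windows (DKK1 and PORCN) and 11.2% of all windows hold it. TATAAA is at -30 to -25 of DKK1, and 2 of the 52 member windows (DKK1 and FZD8) and 6.8% of all windows hold it. Neither set of letters is in the SOST or WNT5A window shown, which says only that these letters are not in those 250 bases.

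Of the receptors FZD6 and TSPAN12 rose, FZD7 fell and the LRP co-receptors were not called. FZD7, a Frizzled receptor active in stem and liver carcinoma cells, was at 4.90, 5.25 and 5.34 FPKM in the knockdown and 8.42, 8.52 and 6.64 FPKM in the control (log2 fold change -0.52, SE 0.0909, limma adjusted p = 0.00808). FZD6, a receptor of planar polarity signalling in mouse, was at 10.9, 10.5 and 10.1 FPKM in the knockdown and 8.02, 7.39 and 7.26 FPKM in the control (log2 fold change 0.43, SE 0.0514, limma adjusted p = 0.00212). In both genes all values of a group lay on 1 side of the other group. FZD5 was at 11.4, 11.5 and 12.4 FPKM in the knockdown and 11.9, 11.8 and 12.1 FPKM in the control, with overlap (limma adjusted p = 0.743).

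The 9 Frizzled genes summed to 29.8, 29.6 and 30.6 FPKM in the knockdown and 31.3, 30.7 and 28.4 FPKM in the control, and these totals overlapped. The share of FZD5, at 38.2% to 40.4% in the knockdown and 37.9% to 42.7% in the control, overlapped too, while those of FZD6 and FZD7 did not. FZD7 made up 16.5%, 17.8% and 17.5% in the knockdown, against 26.9%, 27.8% and 23.3% in the control. FZD6 made up 36.7%, 35.6% and 33.1% in the knockdown, against 25.6%, 24.1% and 25.5% in the control. FZD1 was at 1.54 to 1.81 FPKM in the knockdown and 1.52 to 2.01 FPKM in the control, and FZD2, FZD3, FZD4, FZD8 and FZD9 stayed under 1 FPKM. TSPAN12, a tetraspanin that helps FZD4 respond to norrin, was at 2.59, 2.22 and 2.79 FPKM in the knockdown and 1.16, 0.903 and 1.38 FPKM in the control. It rose 2.21-fold by the means (log2 fold change 0.72, SE 0.11, limma adjusted p = 0.00481), while FZD4 was at 0.416, 0.388 and 0.583 FPKM in the knockdown and 0.687, 0.980 and 0.60 FPKM in the control and was not tested. LRP5 was at 44.6, 44.2 and 47.9 FPKM in the knockdown and 53.7, 46.8 and 51.4 FPKM in the control (limma adjusted p = 0.11), and was called lower without control replicate 2 (0.0368). LRP6 was at 22.2, 21.2 and 23.1 FPKM in the knockdown and 21.8, 22.0 and 22.4 FPKM in the control (limma adjusted p = 0.933).

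**Figure D3:**
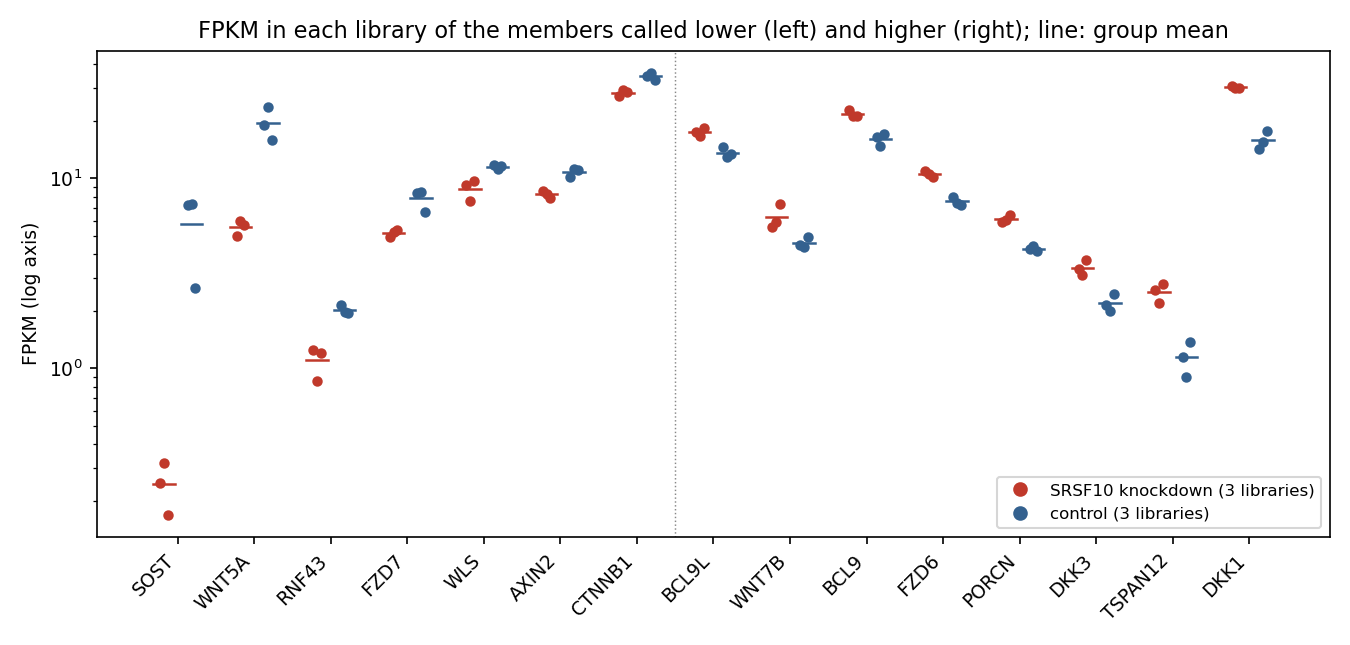
FPKM (log axis) in each of the 3 knockdown and 3 control libraries for the 7 members that fell (left of the dotted line) and the 8 that rose (right), with group means as lines. The groups do not overlap in any of the 15; the widest gap is in SOST, at 0.170 to 0.320 FPKM in the knockdown and 2.64 to 7.33 FPKM in the control.

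Of the transcripts that beta-catenin induces as feedback, AXIN2 and RNF43 fell in the knockdown, while DKK1, described above, rose. AXIN2, a scaffold of the destruction complex and the most widely used readout of the pathway (ENSG00000168646, minus strand of chromosome 17, 65528563 to 65561647), had levels of 8.54, 8.32 and 7.91 FPKM in the knockdown, against 10.2, 11.2 and 11.1 FPKM in the control. It fell by 0.36 on the log2 scale, with each knockdown value below each control (SE 0.0509, limma adjusted p = 0.00388). RNF43, a ubiquitin ligase that removes Frizzled receptors from the surface, was at 1.25, 0.861 and 1.21 FPKM in the knockdown and 2.17, 1.97 and 1.96 FPKM in the control (log2 fold change -0.53, SE 0.0984, limma adjusted p = 0.00974). Its close relative ZNRF3 was at 4.48, 4.56 and 4.90 FPKM in the knockdown and 4.76, 4.99 and 4.89 FPKM in the control, with overlap (limma adjusted p = 0.443).

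The feedback genes NKD1 and LGR5 were under 1 FPKM in all libraries. NKD1, which binds Dishevelled and limits the signal, was at 0.395, 0.364 and 0.401 FPKM in the knockdown and 0.829, 0.897 and 0.880 FPKM in the control. These values lay 2.25-fold apart by the means and were called lower in the fit with no filter (log2 fold change -0.43, limma adjusted p = 0.0398). LGR5, an R-spondin receptor and stem cell marker, was at 0.109, 0.127 and 0.15 FPKM in the knockdown and 0.306, 0.497 and 0.382 FPKM in the control, about 8, 9 and 10 fragments against 23, 33 and 27. It did not pass in the fit with no filter (limma adjusted p = 0.0629), though its groups did not overlap. Of the 9 members listed as feedback targets the knockdown values lay below all controls in 4, AXIN2, RNF43, NKD1 and LGR5, and above them in 1, DKK1. No share of all genes was computed for genes under the filter or for a single direction. These counts over the 9 therefore have no background beside them. Among the 5 tested targets 3 did not overlap between the groups, where 42.7% of all tested genes did not overlap in either direction. Of the 5 that were tested AXIN2 and RNF43 fell and DKK1 rose, while LGR5 and NKD1 were not tested with the filter and LGR5 was not called without it. TCF7, ZNRF3, LEF1 and NOTUM overlapped between the groups.

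**Figure D4:**
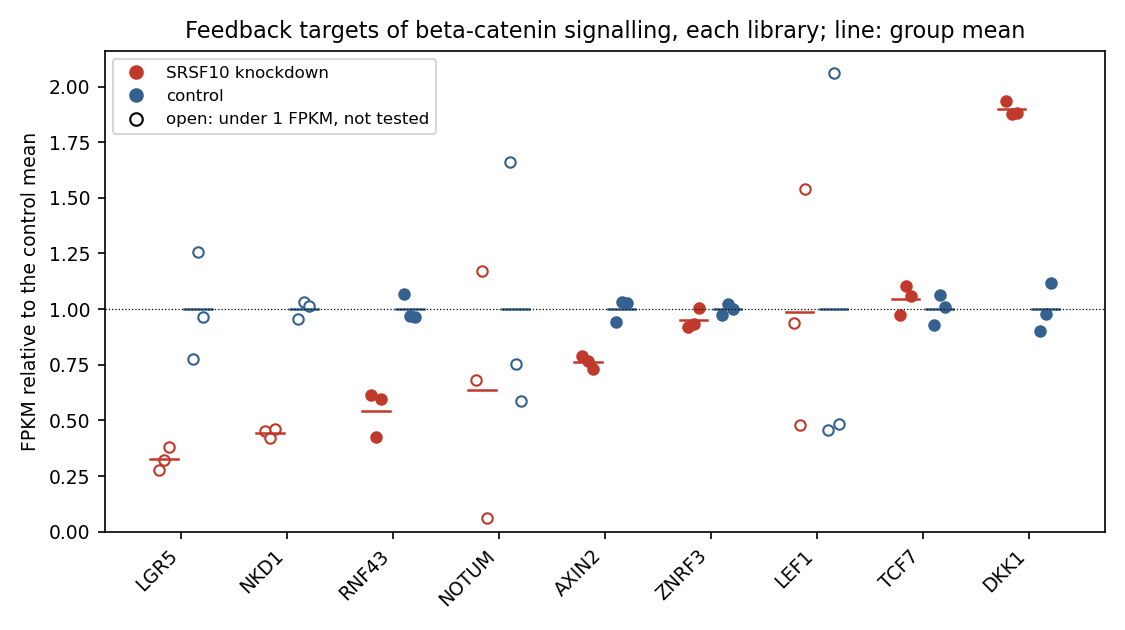
FPKM of the 9 feedback targets in each library divided by the gene's control mean, with group means as lines; open points are genes under 1 FPKM that were not tested. LGR5, NKD1, RNF43 and AXIN2 lie below the controls in all 3 knockdown libraries and DKK1 lies above them; LEF1 and NOTUM scatter widely at low levels.

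RSPO3, a secreted R-spondin that stabilises Wnt receptors and is made by endothelial cells in liver, was low in both groups. It was at 0.403, 0.563 and 0.60 FPKM in the knockdown and 0.112, 0.159 and 0.134 FPKM in the control, and was called higher in the fit with no filter (log2 fold change 0.42, limma adjusted p = 0.0321). LGR4, its receptor in most tissues, was at 26.1, 26.3 and 25.6 FPKM in the knockdown and 24.9, 25.4 and 26.7 FPKM in the control (limma adjusted p = 0.765). LGR6 had a value above 0 in 1 library. LGR4 was thus the R-spondin receptor with by far the most transcript in either group.

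Of the 8 tested cytoplasmic members CTNNB1 and AXIN2 fell and 6 were not called. That is 25% called, close to the 25.2% of all tested genes. CTNNB1, which encodes beta-catenin (ENSG00000168036, plus strand of chromosome 3, 41194741 to 41260096), had levels of 27.1, 29.1 and 28.3 FPKM in the knockdown, against 34.4, 35.9 and 33.0 FPKM in the control (log2 fold change -0.28, SE 0.0446, limma adjusted p = 0.0056). CTNNB1 lies on the short arm of chromosome 3, whose median log2 fold change was -0.27, and 47.2% of the tested genes of that arm had a lower value than CTNNB1. Its fall was therefore close to that of its chromosome arm, and the part of that arm in it was not tested.

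The destruction complex genes APC, AXIN1 and GSK3B had log2 fold changes of 0.09, 0.02 and -0.06. GSK3B, the kinase that marks beta-catenin for degradation, was at 17.5, 16.5 and 17.8 FPKM in the knockdown and 17.6, 18.6 and 17.8 FPKM in the control (limma adjusted p = 0.374). It lies on the long arm of chromosome 3, where the median log2 fold change was -0.13. AXIN1, the constitutive counterpart of AXIN2, was at 10.8, 10.3 and 11.2 FPKM in the knockdown and 10.7, 10.3 and 10.8 FPKM in the control (limma adjusted p = 0.746). APC, the tumour suppressor scaffold of the complex, was at 4.69, 4.78 and 4.36 FPKM in the knockdown and 3.75, 4.39 and 4.72 FPKM in the control. The 3 Dishevelled genes, which carry the signal from Frizzled receptors, summed to 37.1, 36.1 and 39.0 FPKM in the knockdown and 39.6, 38.0 and 36.6 FPKM in the control. DVL1 was at 10.5, 10.9 and 11.6 FPKM in the knockdown and 12.2, 11.7 and 9.93 FPKM in the control (limma adjusted p = 0.833). DVL2 was at 9.69, 9.76 and 10.5 FPKM in the knockdown and 9.85, 8.96 and 9.20 FPKM in the control (limma adjusted p = 0.27), so the groups overlapped in both genes. DVL3 was at 16.8, 15.4 and 16.9 FPKM in the knockdown and 17.6, 17.3 and 17.5 FPKM in the control, without overlap but not called (limma adjusted p = 0.196). Like GSK3B, DVL3 lies on the long arm of chromosome 3, and its log2 fold change was -0.09, beside the median of -0.13 for that arm.

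In the nucleus BCL9 and BCL9L rose while the TCF factors were not called. BCL9 and BCL9L are paralogs that bind beta-catenin and recruit the PYGO co-activators. BCL9 was at 22.8, 21.3 and 21.4 FPKM in the knockdown and 16.5, 14.9 and 17.1 FPKM in the control (log2 fold change 0.42, SE 0.0578, limma adjusted p = 0.0035). BCL9L was at 17.5, 16.7 and 18.3 FPKM in the knockdown and 14.6, 13 and 13.4 FPKM in the control (log2 fold change 0.34, SE 0.0562, limma adjusted p = 0.00672). Every knockdown value of both genes lay above every control. TCF7L2, the most abundant of the TCF and LEF genes here, was at 7.44, 6.65 and 6.30 FPKM in the knockdown and 8.06, 7.5 and 7.30 FPKM in the control (limma adjusted p = 0.159). TCF7 was at 3.81, 4.33 and 4.15 FPKM in the knockdown and 3.64, 4.17 and 3.95 FPKM in the control (limma adjusted p = 0.621), and TCF7L1 and LEF1 stayed under 0.15 FPKM.

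Of the 27 members that were not tested, 4 were listed at 0 in every library, WNT6, WNT7A, SFRP1 and WIF1. Another 9 stayed under 0.1 FPKM and 14 reached at least 0.1 FPKM in a library. With no filter WNT4 and RSPO3 were called higher and NKD1 lower, and the remaining untested members were not called. Exons of 6 of the 15 called members overlap those of other genes in GENCODE 29, and the strand setting is not known here, so fragments could belong to either gene. These are DKK1, WLS, FZD6, RNF43, AXIN2 and BCL9L. In RNF43 and AXIN2 an overlapping gene is on the same strand. Among the members that were not tested, exons of WNT4, NKD1 and LGR5 overlap those of a gene on the other strand.

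Other genes of the pathway were listed by their place in it, with earlier results of these data known. Of the 115 tested 17 rose and 18 fell, 30.4% of them, beside 25.2% of all tested genes, with a median log2 fold change of 0.00. Among co-receptors and effectors of the WNT5A branch and planar polarity 6 of 28 tested fell and 2 rose, 28.6% of them. RHOU, a small GTPase induced by Wnt signals, fell most, to 13.4 ± 0.93 FPKM in the knockdown, against 24.8 ± 2.0 FPKM in the control (SD, n = 3 each; log2 fold change -0.84, limma adjusted p = 0.000685). The GTPase RHOA (168 ± 4.1 FPKM in the knockdown, 215 ± 12 FPKM in the control) and the WNT5A co-receptor RYK (8.89 ± 0.52 FPKM in the knockdown, 11.3 ± 0.51 FPKM in the control) fell, and both lie on chromosome 3. The phospholipase PLCB1 fell as well, at 2.33 ± 0.14 FPKM in the knockdown and 3.64 ± 0.44 FPKM in the control. CDC42 and NFATC2 rose, by 0.16 and 0.30 on the log2 scale, and those calls were lost in 3 and 6 of the alternatives. The calls of RHOU, RHOA, RYK and PLCB1 held in each alternative that tested them. The remaining calls among the 6 that fell were lost in 9 and 6 of 13 alternatives. ROR1, a WNT5A receptor, was at 11.8, 10.3 and 11.5 FPKM in the knockdown and 8.63, 8.57 and 10.5 FPKM in the control (limma adjusted p = 0.0752), and ROR2 was listed at 0; this receptor pair was chosen after its values were seen.

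In the destruction complex and its regulators 1 of 28 tested genes rose and 1 fell, 7.14% of them, below the 25.2% of all tested genes. The gene that rose was CAV1, the coat protein of caveolae, at 1536 ± 101 FPKM in the knockdown and 878 ± 67 FPKM in the control (log2 fold change 0.81, limma adjusted p = 0.000841). The casein kinase gene CSNK1G2 fell by 0.22 on the log2 scale, a call lost in 7 of 13 alternatives. Among nuclear co-factors 2 of 23 rose and 3 fell, or 21.7% beside the same 25.2%. The co-repressor TLE1 rose (21.3 ± 0.64 FPKM in the knockdown, 17.0 ± 1.0 FPKM in the control) as did its relative TLE3 (5.78 ± 0.16 FPKM in the knockdown, 4.66 ± 0.29 FPKM in the control), a call that leaving out knockdown replicate 2 ended (limma adjusted p = 0.0541). The helicase gene RUVBL1, on chromosome 3, fell (16.2 ± 0.42 FPKM in the knockdown, 22.0 ± 0.19 FPKM in the control). CTNND1 and RUVBL2 fell by 0.18 and 0.14 on the log2 scale, and alternatives raised their adjusted p to as much as 0.0794 and 0.0989. Of the other extracellular genes 1 of 6 tested rose, or 16.7%, namely CTHRC1, which was under 1 FPKM in every control and passed the filter through the knockdown alone.

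Widely used target genes of beta-catenin moved in both directions, 11 of 30 tested rising and 8 falling, with a median log2 fold change of 0.08. That is 63.3% called, beside 25.2% of all tested genes. Because the list was chosen with earlier results of these data known, the larger share is no support for a change of these targets as a set. The transcription factors MYC (25.4 ± 0.73 FPKM in the knockdown, 34.2 ± 1.4 FPKM in the control) and JUN (24.9 ± 2.1 FPKM in the knockdown, 41.1 ± 4.3 FPKM in the control) fell. So did ETS2 (11.2 ± 0.22 FPKM in the knockdown, 15.8 ± 0.47 FPKM in the control) and TBX3 (4.07 ± 0.36 FPKM in the knockdown, 6.43 ± 0.50 FPKM in the control), which also encode transcription factors. The matrix protease MMP7 rose, to 62.4 ± 3.9 FPKM in the knockdown, against 35.2 ± 3.4 FPKM in the control. The receptor genes NOTCH2 (9.94 ± 0.37 FPKM in the knockdown, 5.74 ± 0.34 FPKM in the control), EPHB2 (2.11 ± 0.17 FPKM in the knockdown, 0.681 ± 0.086 FPKM in the control) and AXL (16.9 ± 1.8 FPKM in the knockdown, 8.23 ± 1.0 FPKM in the control) rose. EPHB2 passed the filter through the knockdown alone. Many of these genes answer to other pathways as well, and the list does not separate those inputs.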

How the data were processed

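TRIzol extraction, a Vazyme library kit and Illumina NovaSeq sequencing are given in the labels' protocols. The submitters' processing notes name Trim Galore 0.6.5-1, FastQC 0.11.9 and the GRCh38 build. Not given in the sources used here are the aligner, counting program, annotation and strand setting. FPKM values were deposited by the authors in a table of the series and in 6 sample files whose values were identical to it. Counts were not used here, so limma 3.58.1 in R 4.3.3 was run on log2(FPKM + 1) in place of the count test, with a variance trend, a single group term and p-values adjusted by Benjamini-Hochberg across the 12191 genes that had at least 1 FPKM in at least 3 libraries. This scale understates changes of low genes. The members, lists and tests were chosen with earlier results of these data known. Members are named by the rule that all are accounted for, with values per library for those called, those with a group mean of at least 5 FPKM and those needed to show a role. Of the other pathway lists up to 4 genes per direction with the smallest adjusted p are named. GENCODE 29 on GRCh38 gave gene positions and exon overlaps. Depth was estimated from low FPKM values, of which 87.6% to 88.3% came within 0.05 of a whole number of fragments; fragments are given for a member only where its values under 20 fragments lay within 0.2 of whole numbers, and intervals cover counting error only. Chromosome 3 arms were split at position 91000000. The test was also run on simulated libraries with a fixed replicate spread. That spread was not estimated from these data, so the simulation is no support for the calls. Alternatives were no filter, a filter of 5 FPKM, the replicate number as a block, a pseudocount of 0.1, median-of-ratios scaling, rescaling without mitochondrially encoded genes, no variance trend, and each library left out with the tested genes held fixed. Python 3.11.15, NumPy 2.4.6, pandas 2.3.3 and matplotlib 3.10.9 were used for summaries and plots.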

Additional observations from a re-analysis of the deposited data

How the results depend on the processing

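Of the 15 called members 13 were called in the same direction in each of the alternatives that tested them, and 2, WNT7B and WLS, were not. Beside the losses without single libraries, WNT7B (limma adjusted p = 0.0944) and WLS (0.0676) were lost with no filter. The 13 include SOST, which passed the main filter through its control values alone. With a filter of 5 FPKM 21 members were tested, 6 called higher and 5 lower, and 35.2% of all tested genes were called. With no filter 53 members were tested, 9 called higher and 7 lower, and 6.64% of 32280 genes were called. With 1 library left out, 7 to 8 members were higher and 6 to 8 lower. In those fits 16.1% to 22% of all tested genes were called. With a pseudocount of 0.1 the log2 fold changes of low members grew, to -3.96 for SOST, -0.84 for RNF43 and 1.09 for TSPAN12. Over all genes, 1013 were lower with no filter, and with 1 library left out 986 to 1344 were higher and 975 to 1335 lower. Members near 0 changed sign with 1 library left out, in ranges of -0.0179 to 0.0513 for WNT3, -0.0629 to 0.0645 for FZD1, -0.0239 to 0.0368 for LRP6, -0.0023 to 0.0449 for LGR4, -0.11 to 0.0273 for DVL1 and -0.0042 to 0.0527 for AXIN1. Of 35 other pathway genes called, 22 were called in each alternative that tested them. Same-numbered libraries did not clearly deviate together (correlations of 0.0156, 0.057 and -0.0715), and not every library correlated best with its own number. How replicates were made is not stated, and so few libraries cannot exclude that the numbers pair them. With the replicate number as a block 1193 genes were higher and 1146 lower, with 8 members higher and 7 lower. In that fit 14 other pathway genes were higher and 13 lower, and the SRSF10 log2 fold change was -0.80. Median-of-ratios scaling moved the median of all genes by 0.00774. Transcripts under about 20 fragments, such as SOST in the knockdown, are limited by counting error.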
